A study of Mus musculus with 2 samples.

Results

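The genes of the major histocompatibility complex (MHC, called H2 in the mouse) were followed in the ovaries of prenatally androgenized (PNA) and control mice. Members were taken by gene symbol from the annotation of the array: every row whose symbol begins with H2-, and the rows of *B2m*, *Cd74*, *Ciita*, *Tap2*, *Tapbp* and *Nlrc5*. This gave 41 of the 22529 genes that the annotation names, measured by 69 of 45037 probe sets, a probe set being a group of short oligonucleotides that measures 1 transcript or several near-identical ones. Of these genes, 30 have at least 1 probe set of their own, and 16 rows name several genes at once and are treated as shared. By class, 15 probe sets measured classical class I genes (H2-K, H2-D and H2-L), 19 nonclassical class I genes (H2-Q, H2-T, H2-M and H2-Bl), 22 class II genes and 10 the accessory genes. In addition, 1 row names a classical and a nonclassical gene together, and 2 rows name H2-Ke genes, which lie in the complex but encode no antigen-presenting protein.

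PNA mice were female ICR offspring whose dams had received, on each of gestation days 16 to 18, a subcutaneous injection of 350 µg dihydrotestosterone in 70 µl sesame oil. Control mice were ICR females born to dams given the oil alone. Each group comprised 5 ovaries, taken at diestrus according to the labels, and was hybridised to 1 Affymetrix Mouse Genome 430 2.0 array. For the age of these mice and the way the ovaries of a group were combined, nothing was given in the sources used here. A single array per group allows no check against replicates, so no SD, test or p-value accompanies the values. ICR is an outbred stock and MHC genes are highly polymorphic, so alleles that bind the probes differently cannot be told apart from differences in transcript level. Nor can more cells of a type be told apart from more RNA per cell in whole ovaries.

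Class I molecules are carried by almost all nucleated cells and show peptides from inside the cell to CD8 T cells. Their heavy chain pairs with beta-2 microglobulin and is loaded in the endoplasmic reticulum by the TAP transporter and tapasin. Class II molecules are alpha and beta chain pairs of dendritic cells, macrophages and B cells that show peptides from engulfed material to CD4 T cells. The invariant chain escorts them to endosomes, where H2-DM exchanges its remnant for peptide and H2-O restrains H2-DM. Interferons raise class I through IRF factors and the coactivator NLRC5, and interferon gamma raises class II through CIITA.

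The 40th percentile of each array, a signal of 30.6 for PNA and 30.4 for control ovaries, was taken as the floor of measurement. Of the 69 probe sets, 44 lay above it on both arrays, 3 on the PNA array alone and 22 on neither. The study counted changes from 1.5-fold upwards. This was met by 7 of the 47 probe sets above the floor in the higher direction (14.9%), where 3.04% of all 27721 probe sets above the floor met it. One member (2.13%) was at least 1.5-fold lower, against 2.21% of all. Most members moved by less than this. At a line of 1.2-fold, chosen after the values were seen, 22 of 47 were higher (46.8%), against 11.9% of all probe sets, and 41 had a log2 ratio of PNA over control above 0. Classical class I probe sets, which overlap in what they measure, made up 12 of the 22. The median log2 ratio was 0.26 for the members and -0.00 for all probe sets above the floor, of which 47.8% had a ratio above 0. Among the probe sets above the floor on both arrays, 6 of 44 members were at least 1.5-fold higher (13.6%), against 2.55% of all. Of these 44, 38 had a ratio above 0, where 47.7% of all such probe sets did. Among the 26 members with a mean signal of 300 or more, 1 was at least 1.5-fold higher (3.85%, against 1.49% of all probe sets as bright) and 14 were at least 1.2-fold higher (53.8%, against 6.87% of all probe sets as bright). Taken by gene, with each gene represented by the brightest probe set that names it alone, 20 of the 30 genes lay above the floor. None of these was 1.5-fold higher, where 2.49% of all genes were, and *H2-Q10* was lower, where 2.16% of all genes were. At least 1.2-fold higher were 6 of the 20 genes, where 10.2% of all genes were. The median over the 20 genes was 0.22, against -0.01 over all 14116 genes above the floor.

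**Figure D1:**
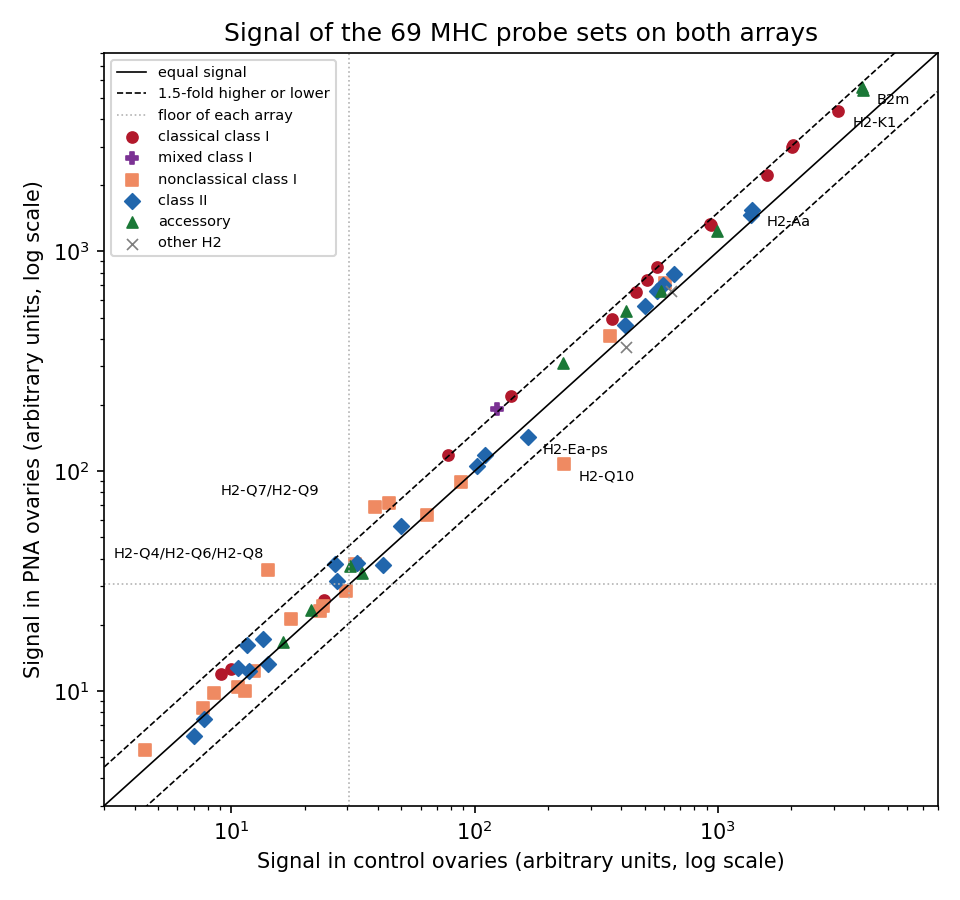
Signal of each of the 69 MHC probe sets in PNA ovaries (vertical axis) against control ovaries (horizontal axis), both in arbitrary units on log scales, with 1 point per probe set and 1 array per group. The classical class I points above the floor run along the upper 1.5-fold line, the class II points lie near the line of equal signal, and *H2-Q10* lies below the lower 1.5-fold line at 108 in PNA and 233 in control ovaries.

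Of the classical class I probe sets, all 12 above the floor were higher in PNA ovaries, by 1.34-fold to 1.55-fold, with a median log2 ratio of 0.53, and all 12 passed 1.2-fold. Of these, 3 passed 1.5-fold, and 5 more members, 4 of them classical, lay between log2 ratios of 0.52 and 0.58, just under the line. The brightest probe set of *H2-K1*, the H2-K heavy chain, had a signal of 4373 in PNA and 3128 in control ovaries, a log2 ratio of 0.48. Its other probe sets gave 2220.3 in PNA and 1598 in control ovaries (0.47), and 119 in PNA and 77.9 in control ovaries (0.61). *H2-D1*, the H2-D heavy chain, gave 2985 in PNA and 2022 in control ovaries on its brightest probe set, a log2 ratio of 0.56. The other probe sets of *H2-D1* above the floor gave 851 in PNA and 564 in control ovaries (0.59), 743 in PNA and 511 in control ovaries (0.54), and 491 in PNA and 367 in control ovaries (0.42).
The shared rows gave like ratios. The row naming *H2-D1* and *H2-L* on the brighter of its probe sets had 3044 in PNA and 2038 in control ovaries (0.58), and on the dimmer 219.5 in PNA and 141 in control ovaries (0.63). The rows naming *H2-D1* with *H2-K1* had 1312 in PNA and 939 in control ovaries (0.48), and 656 in PNA and 463 in control ovaries (0.50). The row naming *H2-K1* with an uncharacterised locus had 1327 in PNA and 927 in control ovaries (0.52), and that naming *H2-K1* with the nonclassical *H2-Q5* had 192 in PNA and 124 in control ovaries (0.64). These probe sets are not independent measurements, since classical heavy chains are near-identical over much of their length. One probe set listed under *H2-K1* aligns, in the deposited annotation, at chr17:35263113-35267196, where *H2-D1* lies. Of those listed under *H2-D1*, the one at 0.59 aligns at chr17:33996199-33996864 and the one at 0.54 at chr17:33892021-34000199, both over *H2-K1*. A further *H2-D1* probe set, below the floor on both arrays, is also placed over *H2-K1*. The row naming *H2-K1* and *H2-Q5* aligns at chr17:36056323-36111427, away from both genes. A split between the H2-K and H2-D genes therefore could not be read from these arrays. *H2-D4* and the remaining 2 probe sets of *H2-D1* were below the floor on both arrays.

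The promoters of both classical genes are shown because their members moved together over a narrow range. Each window runs from 250 bases before to 50 bases after the RefSeq transcription start (build GRCm38.p6), 5′ to 3′ on the gene's strand. Its end thus lies after the annotated start. Capitals mark matches, on either strand, to 4 short motifs: the IRF core AANNGAAA, the NF-Y box CCAAT, the X2 core TGACG, and the kappa B core GGGATTCC.
*H2-K1*, chr17:34000298-34000597, minus strand: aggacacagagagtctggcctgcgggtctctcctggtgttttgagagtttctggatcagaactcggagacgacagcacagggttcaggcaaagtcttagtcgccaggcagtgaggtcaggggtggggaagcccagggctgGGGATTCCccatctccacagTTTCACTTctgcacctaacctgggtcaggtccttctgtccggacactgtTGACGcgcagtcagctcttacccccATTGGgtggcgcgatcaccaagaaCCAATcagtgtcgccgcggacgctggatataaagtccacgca
*H2-D1*, chr17:35262844-35263143, plus strand: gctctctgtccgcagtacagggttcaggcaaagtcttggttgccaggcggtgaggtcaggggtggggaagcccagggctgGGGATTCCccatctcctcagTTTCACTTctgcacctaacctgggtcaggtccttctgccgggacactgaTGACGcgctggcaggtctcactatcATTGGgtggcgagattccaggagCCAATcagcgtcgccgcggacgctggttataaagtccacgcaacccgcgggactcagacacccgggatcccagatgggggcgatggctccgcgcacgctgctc
Both windows hold the kappa B core, the IRF core, the X2 core and a pair of NF-Y boxes in that order and without overlap. The kappa B core begins 110 bases before the annotated start in *H2-K1* and 170 bases before it in *H2-D1*. The other matches are displaced in the same direction. The stretch tataaagtccacgca, present in both windows, lies after the annotated start in *H2-K1* and before it in *H2-D1*. These distances therefore depend on where RefSeq places each start, and are not read as a difference between the promoters. Over 239 aligned bases the windows are 88.3% identical.

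Nonclassical class I genes did not move as a group. Of 19 probe sets, 9 lay above the floor, with a median log2 ratio of 0.24, and the 8 above it on both arrays had ratios from -1.11 to 0.82. Both the largest increase and the only 1.5-fold decrease among members above the floor on both arrays were H2-Q rows. The row naming *H2-Q7* and *H2-Q9*, which encode the Qa-2 antigen, had 68.5 in PNA and 38.8 in control ovaries (log2 ratio 0.82). The row naming *H2-Q6* and *H2-Q8*, of the same Qa-2 group, had 72.0 in PNA and 44.5 in control ovaries (0.69). The row naming *H2-Q4*, *H2-Q6* and *H2-Q8* had 35.3 in PNA and 14.2 in control ovaries, below the floor in the control, and is therefore at least 1.16-fold higher against that floor. Its log2 ratio of 1.32 as listed is not a measured one, although the row counts among the 7 past 1.5-fold over all 47 members. These 3 rows are dim and share genes, and none of these genes has a probe set of its own above the floor.
*H2-Q10*, which encodes a soluble class I molecule known mainly as a liver product, went the other way. Its single probe set had 108 in PNA and 233 in control ovaries, 2.16-fold lower (log2 ratio -1.11). It aligns at chr17:35470101-35474553, within *H2-Q10*.
The H2-T, H2-M and H2-Bl rows stayed close to equal, with 0 of 5 above the floor past 1.2-fold and a median log2 ratio of 0.18. *H2-M3*, which presents formylated peptides such as those of bacteria, had 410.4 in PNA and 362 in control ovaries (0.18). The rows naming *H2-T10*, *H2-T22* and *H2-T9*, ligands of gamma delta T cells, had 716 in PNA and 608 in control ovaries on one probe set and 37.9 in PNA and 32.1 in control ovaries on the other, with a log2 ratio of 0.24 on both. The row of *H2-Bl* and *H2-T18* had 89.1 in PNA and 88.1 in control ovaries (0.02), and that of *H2-T18* and *H2-T3*, genes of the thymus leukemia antigen, 63.1 in PNA and 63.8 in control ovaries (-0.02). The sign of the *H2-Bl* row depended on scaling, since under median scaling and quantile normalization 6 rather than 7 of the 9 probe sets were above 0. Rows of *H2-Q2*, *H2-Q5*, *H2-T24*, *H2-T3*, *H2-T18*, *H2-M9*, *H2-M10.1* and *H2-Bl* alone were below the floor on both arrays. *H2-T23*, the Qa-1 gene, is named second in a row that falls outside the rule, and that row had 1129 in PNA and 909 in control ovaries (0.31).

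The promoters of *H2-Q7* and *H2-Q10* are printed because the rows of these neighbouring genes differed in direction, with the same windows and capitals as above.
*H2-Q7*, chr17:35438905-35439204, plus strand: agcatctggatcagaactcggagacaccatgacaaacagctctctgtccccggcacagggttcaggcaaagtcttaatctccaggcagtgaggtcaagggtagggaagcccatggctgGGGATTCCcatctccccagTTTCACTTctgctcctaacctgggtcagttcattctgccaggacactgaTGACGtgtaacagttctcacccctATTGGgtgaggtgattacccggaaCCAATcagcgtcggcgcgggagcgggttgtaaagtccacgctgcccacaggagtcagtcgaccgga
*H2-Q10*, chr17:35469839-35470138, plus strand: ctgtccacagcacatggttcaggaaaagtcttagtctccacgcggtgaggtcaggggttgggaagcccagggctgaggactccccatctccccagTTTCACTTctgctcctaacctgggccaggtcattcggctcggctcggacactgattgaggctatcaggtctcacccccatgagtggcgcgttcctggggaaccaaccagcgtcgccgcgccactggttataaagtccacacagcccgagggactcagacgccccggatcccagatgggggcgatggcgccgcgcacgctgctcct
The *H2-Q7* window holds the kappa B, IRF, X2 and NF-Y matches in the order seen in *H2-K1*, to which it is 86.6% identical over 253 aligned bases. The *H2-Q10* window is 84.8% identical to that of *H2-K1* over 231 aligned bases but holds the IRF core alone. In the alignment the kappa B core GGGATTCC of *H2-K1* stands opposite AGGACTCC in *H2-Q10*. The NF-Y box after the annotated start of *H2-K1* stands opposite CCAAC, and the X2 core and the other NF-Y box fall on gaps. No binding was measured here, so these are differences between letters only.

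Class II genes differed less between the arrays than classical class I genes did. Of 22 probe sets, 15 lay above the floor and none was 1.5-fold changed. At least 1.2-fold higher was 1, that of *H2-Oa*, which was below the floor in the control. The median log2 ratio was 0.17, which is 0.36 below that of classical class I, a contrast chosen after the values were seen. The classical chains *H2-Aa*, *H2-Ab1* and *H2-Eb1*, the alpha and beta chains of H2-A and the beta chain of H2-E, had 7 probe sets above the floor, all with ratios between 0.09 and 0.26. *H2-Aa* had 1548 in PNA and 1380.0 in control ovaries on its brightest probe set (0.17), with 0.09 and 0.17 on the others. *H2-Ab1* had 790.0 in PNA and 661 in control ovaries (0.26), with 0.24 and 0.15 on the others, and *H2-Eb1* had 658 in PNA and 564 in control ovaries (0.22). The 7 class II ratios all lay below the lowest classical class I ratio of 0.42.
The peptide-loading genes were nearer to the floor. *H2-DMa* had 105 in PNA and 102 in control ovaries (0.04), and the rows shared by *H2-DMb1* and *H2-DMb2* had 118 in PNA and 110.0 in control ovaries (0.10), and 56.2 in PNA and 49.8 in control ovaries (0.17). *H2-Oa*, the alpha chain of H2-O, had 37.7 in PNA and 26.7 in control ovaries, at least 1.24-fold higher against the control floor (log2 ratio as listed 0.50), and *H2-DMb2* on its own probe set had 31.8 in PNA and 27.1 in control ovaries, at least 1.04-fold higher. *H2-Eb2*, a second E beta gene, had 38.2 in PNA and 32.7 in control ovaries (0.22), and *H2-Ob* was below the floor on both arrays.
The exception in direction was *H2-Ea-ps*, named in the annotation as a pseudogene of the E alpha chain. It had 143 in PNA and 166 in control ovaries (-0.21) on one probe set, and 37.2 in PNA and 42.1 in control ovaries (-0.18) on another. The 13 class II probe sets above the floor on both arrays ranged from -0.21 to 0.26, with 11 above 0 and the 2 of *H2-Ea-ps* below it. *H2-Oa* and the own probe set of *H2-DMb2* passed the floor on the PNA array alone, which fixes their ratios above 0. With these counted, 13 of 15 were above 0, as also under median scaling, quantile normalization and loess.
The windows of *H2-Aa* and *H2-Eb1* are given to set class II beside class I.
*H2-Aa*, chr17:34287774-34288073, minus strand: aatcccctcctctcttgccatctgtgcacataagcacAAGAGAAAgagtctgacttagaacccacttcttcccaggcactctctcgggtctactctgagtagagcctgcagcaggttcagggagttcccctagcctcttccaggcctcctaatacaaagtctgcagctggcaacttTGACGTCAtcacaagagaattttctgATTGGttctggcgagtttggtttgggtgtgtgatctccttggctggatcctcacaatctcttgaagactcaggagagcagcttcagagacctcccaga
*H2-Eb1*, chr17:34305617-34305916, plus strand: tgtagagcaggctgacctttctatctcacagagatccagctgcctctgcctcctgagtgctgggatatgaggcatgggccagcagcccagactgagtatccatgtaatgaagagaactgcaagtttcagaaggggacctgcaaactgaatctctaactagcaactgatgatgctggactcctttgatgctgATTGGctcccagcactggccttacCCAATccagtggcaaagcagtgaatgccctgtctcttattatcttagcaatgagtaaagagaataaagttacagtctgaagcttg
The *H2-Aa* window holds an IRF core, an NF-Y box and X2 matches on both strands that overlap in a palindrome, and the *H2-Eb1* window holds a pair of NF-Y boxes and none of the other motifs. They are 53.1% and 57.9% identical to the *H2-K1* window over 277 and 240 aligned bases.

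**Figure D2:**
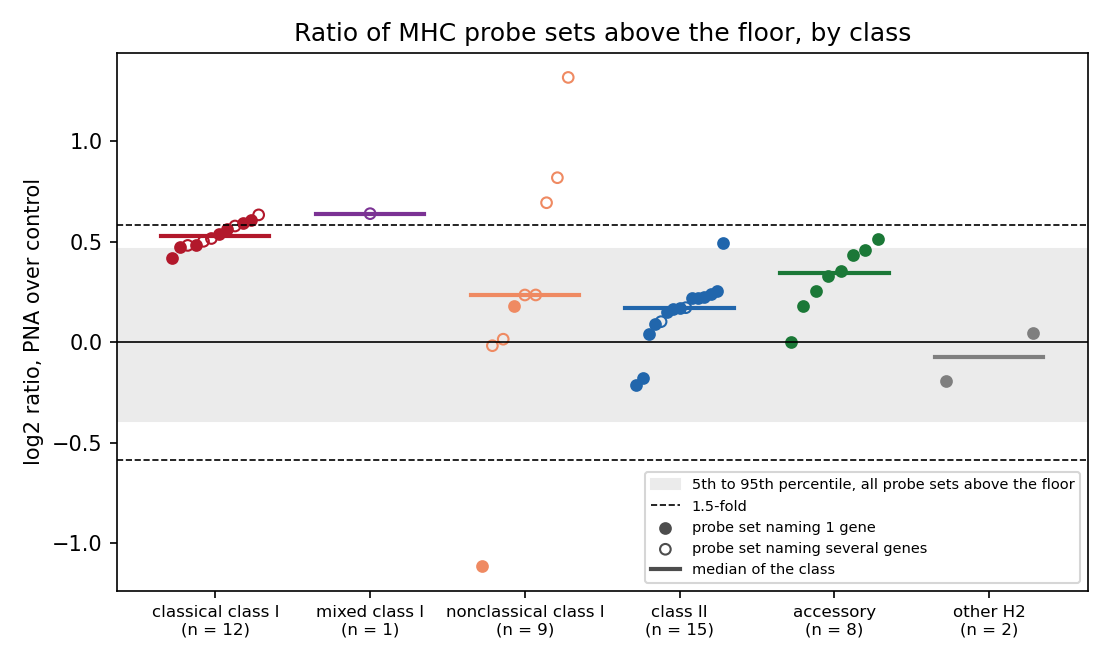
Log2 ratio of PNA over control for each MHC probe set above the floor (vertical axis), by class, with filled points for probe sets naming 1 gene, open points for those naming several, bars at class medians, and a grey band from the 5th to the 95th percentile of all probe sets above the floor (-0.39 to 0.46). Classical class I lies between 0.42 and 0.63, class II between -0.21 and 0.50, and nonclassical class I spreads from -1.11 to 0.82, with a further point at 1.32. The points at 0.50 (*H2-Oa*) and 1.32 (the *H2-Q4*, *H2-Q6* and *H2-Q8* row) have control signals below the floor.

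Among the accessory genes, those that serve class I were further from equal than those that serve class II. *B2m*, the light chain shared by class I molecules, had 5609.9 in PNA and 3923 in control ovaries (log2 ratio 0.52) and 5413 in PNA and 3940.4 in control ovaries (0.46). The second of these probe sets is placed on chromosome 15 by the deposited annotation, away from *B2m*. *Tap2*, a subunit of the peptide transporter, had 536 in PNA and 419 in control ovaries (0.36). *Tapbp*, which encodes tapasin, had 1243 in PNA and 988 in control ovaries (0.33), and 311 in PNA and 231 in control ovaries (0.43) on a second probe set. On the class II side, *Cd74*, the invariant chain, had 662 in PNA and 584 in control ovaries (0.18). The coactivators were dim: *Nlrc5*, that of class I, had 36.8 in PNA and 30.8 in control ovaries (0.26), and *Ciita*, that of class II, had 34.4 in PNA and 34.4 in control ovaries (0.00, and between -0.02 and -0.00 under the other scalings), with a second probe set below the floor. Identical values on both arrays, as for *Ciita*, occurred for 2033 probe sets in all. In total 0 of 8 accessory probe sets were 1.5-fold changed and 5 were at least 1.2-fold higher, with a median of 0.34.
The promoter of *B2m*, on another chromosome than the heavy chains, is shown for comparison.
*B2m*, chr2:122147437-122147736, plus strand: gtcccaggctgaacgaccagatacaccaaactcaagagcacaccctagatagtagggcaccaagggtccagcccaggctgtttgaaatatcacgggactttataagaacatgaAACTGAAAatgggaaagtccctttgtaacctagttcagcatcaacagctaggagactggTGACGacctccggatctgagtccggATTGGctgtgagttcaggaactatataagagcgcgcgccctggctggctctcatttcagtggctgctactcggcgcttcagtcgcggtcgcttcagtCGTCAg
It holds the IRF core, the X2 core and an NF-Y box in the order of *H2-K1* without the kappa B core, and a further X2 match on the opposite strand after the start. Its IRF match lies on the gene's own strand, whereas those of *H2-K1*, *H2-D1*, *H2-Q7* and *H2-Q10* lie on the other. The windows of *B2m* and *H2-K1* are 50.4% identical over 250 aligned bases.
*H2-Ke2*, a prefoldin subunit (RefSeq *Pfdn6*), had 662 in PNA and 641 in control ovaries (0.05). *H2-Ke6*, a hydroxysteroid dehydrogenase (*Hsd17b8*), had 366 in PNA and 419 in control ovaries (-0.19). These genes of the same chromosomal region thus lay on either side of equal.

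RefSeq promoter windows were matched to 24 of the 41 member genes. The IRF core was present in 16 of the 24, where 24.2% of the windows of 27025 genes held it: in 2 of 2 classical, 9 of 10 nonclassical and 3 of 8 class II windows. The NF-Y box was present in 20 of 24 (37.9% of all genes) and the X2 core in 10 of 24 (21.0% of all genes). The kappa B core was present in 4 of 24, those of *H2-K1*, *H2-D1*, *H2-Q6* and *H2-Q7*, where 1.07% of all genes held it. The class I windows resemble each other in sequence, so these counts describe related copies and not separate occurrences. The holders of the IRF core include *H2-Q10* with its log2 ratio of -1.11 as well as *H2-K1* and *H2-D1*. The part of this core in the ratios was not tested.

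**Figure D3:**
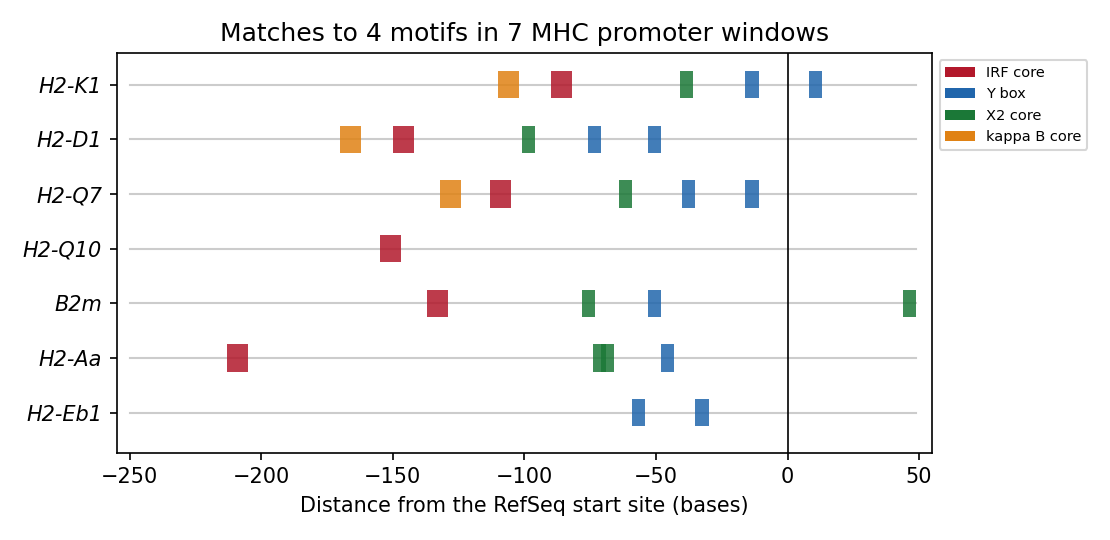
Positions of the motif matches in 7 MHC promoter windows, with distance from the RefSeq start site in bases on the horizontal axis and 1 row per gene, each block spanning 1 match. *H2-K1*, *H2-D1* and *H2-Q7* share the same order of matches at different distances from the annotated start, and *H2-Q10* has the IRF core alone.

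Genes around the MHC were taken from lists of textbook roles. Of 22 genes of antigen processing above the floor, 4 of which are members described above, 18 had ratios above 0, where 47.1% of all genes did, and 6 were at least 1.2-fold higher, where 10.2% of all genes were. One was at least 1.5-fold higher, where 2.49% of all genes were. The median log2 ratio was 0.18, with a range from -0.24 to 0.71. The gene past 1.5-fold was *Psmb8*, a catalytic subunit of the immunoproteasome, which cuts the peptides that class I presents, with 629 in PNA and 384 in control ovaries. The other immunoproteasome subunits were *Psmb9*, with 304 in PNA and 236 in control ovaries (0.36), and *Psmb10*, with 469 in PNA and 374 in control ovaries (0.33). *Tap1*, the partner of *Tap2*, had 106 in PNA and 99.2 in control ovaries (0.10), a smaller ratio than that of *Tap2*. The chaperones calreticulin and calnexin lay below 0, *Calr* at -0.20 and *Canx* at -0.24. On the class II side *Ctss*, the protease that trims the invariant chain, was at 0.20 and the thiol reductase *Ifi30* at -0.04.
The 17 regulators of MHC transcription above the floor include the members *Ciita* and *Nlrc5*. Of the 17, 2 were at least 1.5-fold higher on the brightest probe set, where 2.49% of all genes were, and none lower, with a median of 0.03. Both act in interferon signalling: *Irf7* had 127 in PNA and 46.9 in control ovaries (1.44) and *Irf9* had 309.5 in PNA and 194.5 in control ovaries (0.67). *Stat2* had 78.6 in PNA and 57.6 in control ovaries (0.45), and on a second probe set, of like brightness, 83.5 in PNA and 53.7 in control ovaries (0.64), which is past 1.5-fold. *Irf1*, the factor through which interferon gamma acts on both classes, had 478 in PNA and 403 in control ovaries (0.25), and *Irf8*, a factor of dendritic cells and macrophages, was at 0.01. *Ifng* itself was below the floor on both arrays. The RFX complex, which binds the X box of both classes, was at -0.13 for *Rfx5*, 0.03 for *Rfxap* and 0.00 for *Rfxank*. Beside these, 15 of 18 interferon-stimulated genes above the floor were at least 1.5-fold higher, where 2.49% of all genes were. Their median was 1.08, a larger value than any classical class I ratio, and the part of interferon signalling in the MHC ratios was not tested. These counts use the brightest probe set of a gene, and for *Xaf1* another ran the other way, with 14.6 in PNA and 168 in control ovaries (-3.53, the PNA signal being below the floor), against 552 in PNA and 200.1 in control ovaries (1.46) on the brightest.
Outside the complex, 0 of 4 class I-like molecules above the floor passed 1.5-fold. The nearest to it was *Hfe*, which regulates iron uptake, with 268 in PNA and 194 in control ovaries (0.47). Of 5 costimulatory and adhesion genes above the floor, *Icam1* alone was at least 1.5-fold higher, where 2.49% of all genes were. It had 185 in PNA and 103 in control ovaries (0.85), and *Cd86* had 71.9 in PNA and 48.7 in control ovaries (0.56).

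Class II genes depend on which leukocytes a tissue holds, so markers of these cells are given beside them. None of the 5 dendritic cell markers above the floor was 1.5-fold changed (median 0.19, summed signal of the list 510 in PNA and 451 in control ovaries). None of the 5 macrophage markers above it was either (median 0.14, summed signal 1682 in PNA and 1411 in control ovaries), nor any of 5 T cell markers (median 0.18, summed signal 320.1 in PNA and 283 in control ovaries). The medians cover markers above the floor, whereas the summed signals cover every measured gene of a list, those below the floor included. The T cell markers were split in direction, with 3 above 0, *Cd4* at -0.04 and *Cd8a* at -0.35. Of 5 B cell markers, *Cd22* alone was above the floor (0.55), and the defining *Cd79a* and *Ms4a1* were below it on both arrays, as were all 3 NK cell markers. The 3 markers of all leukocytes had a median of 0.45 and a summed signal of 784 in PNA and 607 in control ovaries. They were *Ptprc* with 285 in PNA and 195 in control ovaries (0.55), *Coro1a* (0.45) and *Laptm5*. *Laptm5*, the brightest, had 323 in PNA and 283 in control ovaries (0.19). The part of leukocyte number in the class I and class II ratios was not tested. Ovarian markers were above the floor on both arrays except *Ddx4* of the oocyte, with 32.4 in PNA and 26.7 in control ovaries. The 4 granulosa markers had a median of 0.06 and ranged from -0.25 to 0.36. The 3 oocyte markers, *Ddx4* among them, had a median of 0.22, and none of either list was 1.5-fold changed. Of 2 theca markers *Cyp17a1*, the enzyme that makes androgen precursors, was at least 1.5-fold higher (1.01), where 2.49% of all genes were. The other, *Star*, had 9805 in PNA and 9093 in control ovaries (0.11). The 4 endothelial markers had a median of -0.25.

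**Figure D4:**
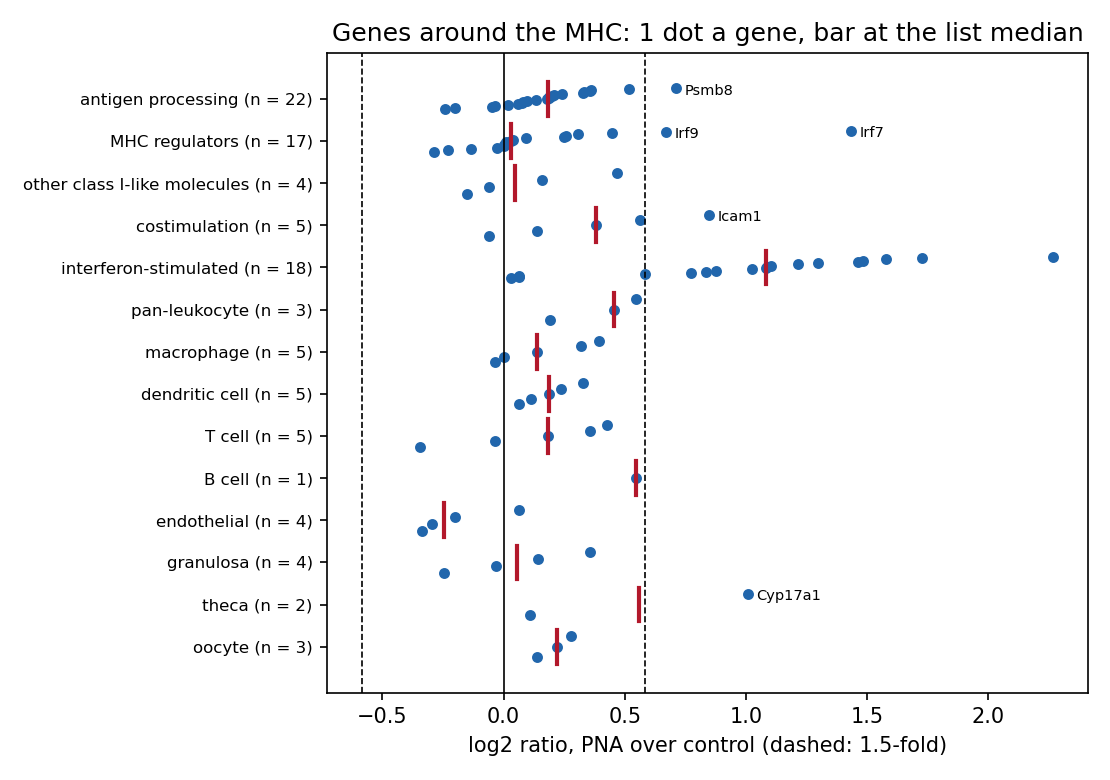
Log2 ratio of PNA over control (horizontal axis) for genes above the floor in lists around the MHC, with 1 dot per gene on its brightest probe set, red bars at list medians and dashed lines at 1.5-fold in either direction. Antigen processing genes lie between -0.24 and 0.71, whereas the interferon-stimulated list has its median at 1.08.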

How the data were processed

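Total RNA of PNA and control ovaries was labelled with biotin and hybridised to 2 arrays, 1 per group. The authors deposited a linear signal intensity per probe set, with annotation, and log2 values from which the mean of both arrays had been subtracted for each probe set. The sources used here name no program or method for summarising and scaling the probes. Ratios from the linear intensity and from the log2 values that the authors deposited differed by at most 2e-06. The deposited sheets of differential genes hold the authors' own comparison and were not used. The number of arrays limits the precision.

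After 64 control probe sets were left out of 45101, the log2 ratio of PNA over control was taken in Python 3.11.15 (pandas 2.3.3, numpy 2.4.6), with no test. The build of the deposited alignments is not named, and 59 of 67 member alignments overlap the named gene in GRCm38.p6. Every member above the floor was named. Promoter windows were aligned with Biopython 1.88 (match 2, mismatch -1, gap opening -5, gap extension -1, free end gaps). The steps were tested on simulated data. Alternatives were other scalings (statsmodels 0.14.6 for loess), an offset, other floors, a stricter threshold and other choices of rows. The members, lists and motifs were chosen with earlier results of these data known. Some items of these lists are not reported here.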

Additional observations from a re-analysis of the deposited data

How the results depend on the processing

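The alternatives changed counts past 1.5-fold more than they changed medians. With an offset of 50 on each signal, which pulls ratios near the floor towards 0, 0 MHC probe sets were at least 1.5-fold higher, with 0 classical and 0 nonclassical class I. With the floor at the 60th percentile, 4 MHC probe sets and 0 nonclassical ones were higher. At a 2-fold threshold, 1 MHC probe set was higher, with 0 classical and 1 nonclassical, and 0 antigen processing genes. Without rows naming several genes, 32 MHC probe sets above the floor remained, of which 2 (6.25%) passed 1.5-fold, with 0 nonclassical. Of the same 32, 13 (40.6%) passed 1.2-fold, where 22 of all 47 (46.8%) did. Without probe sets whose suffix marks possible cross-hybridisation, 1 classical probe set passed 1.5-fold and 11 members passed 1.2-fold. With the mean of all probe sets of a gene, 0 antigen processing genes passed. Fewer than 47 members were counted with the higher floor and with rows or suffixes left out, and the last setting averaged probe sets. No share over all probe sets was taken for these settings. At 2-fold, 0 classical probe sets could pass, since the largest classical ratio above the floor was 1.55-fold. Otherwise the cause was not tested.

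In the other 132 comparisons with an alternative, counts stayed within 1.5 times and medians within 0.1 of the reported value. Some of these could not differ, since the deposited log2 values give the same ratios and median scaling leaves a difference between medians unchanged. A change of sign was looked for only in medians and, among the genes, in *H2-Q10*, and none occurred. The difference between the medians of classical class I and class II was 0.36 as reported and lay between 0.34 and 0.44 over the alternatives. Of 120 values of the 20 member genes, 7 moved by over 0.1, among them *H2-Q10* at -0.84 with the offset and *B2m* at 0.34 as the mean of its probe sets, 1 of which is below the floor. Median scaling placed the median of all probe sets at -0.02, quantile normalization at -0.01.

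No paired analysis was possible because each group has 1 array. Dim members, among them the *H2-Q4*, *H2-Q6* and *H2-Q8* row, *Nlrc5*, *Ciita* and *H2-Oa*, lie near the floor, where ratios are least certain, and single-gene values for class I heavy chains are limited by shared probes.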
